A study of Mus musculus with 5 samples.

Results

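Ribosome biogenesis genes were followed in germinal center B cells with conditional alleles of Relb and Nfkb2, the pair of alternative NF-κB subunits. The set was defined by name as 36 nucleolar and RNA polymerase I genes, and all 36 were found among the 38924 genes of the table. The table gives names in capitals (NOLC1, NCL, NPM1 and UBTF, for example), which are written here in the usual mouse spelling. The DKO group held 2 libraries from relbfl/flnfkb2fl/flCg1-Cre mice and the WT group 3 libraries from Cg1-Cre littermates, so that both groups carry the Cre allele, a Cre expressed where B cells switch on transcription of the IgG1 heavy chain constant gene. All mice were 12 weeks old and had been immunized with sheep red blood cells, and eGFP+ splenic germinal center B cells were sorted on day 7 and their amplified total RNA was sequenced. The labels do not say how many mice gave each library, so the p-values measure only the spread between these libraries.

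Ribosomes are built in the nucleolus. RNA polymerase I transcribes the long ribosomal RNA precursor, small nucleolar ribonucleoproteins (snoRNPs) modify it, and separate sets of factors process and fold it into the small and the large subunit. The program is a classical target of Myc, and germinal center B cells are known for fast division.

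Depth ranged from 35154064 to 48178578 reads in DKO and from 33953377 to 57582464 reads in WT, of which 17.6 to 17.7 M and 15.4 to 15.5 M lay outside the mitochondrial genome. Mitochondrial ribosomal RNA took 47.0% and 60.6% of the reads in DKO and 51.6% to 70.9% in WT. Both targeted genes were lowest in DKO. Relb had 56.9 and 10.7 normalized counts in DKO replicates 1 and 2, against 136, 171 and 117 in WT replicates 1 to 3, and Nfkb2 had 298 and 73.5 in DKO, against 657, 601 and 445 in WT. The residual level was thus larger in DKO replicate 1. Of 8 germinal center markers, 7 were measured well enough to be tested, among them Bcl6, and Mef2b was listed at 0 in all 5 libraries. DKO replicate 1 and WT replicate 2 stood apart, since the mean levels of T cell and of naive B markers were higher there than in the remaining 3. The mean log2 level of 11 tested T cell markers lay 1.38 above the WT mean in DKO replicate 1 and 0.55 below it in DKO replicate 2, and at -0.79, 2.31 and -1.52 in the WT libraries. The members' counts and medians are therefore also given without these libraries.

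All 36 members passed the minimum mean of 10 normalized counts set for testing, with WT means from 68.0 for Rrp9 to 34790 for Ncl. Per kilobase of transcript, a scale on which genes can be compared, Npm1 was highest with 14382 normalized counts per kb in DKO and 18585 in WT. On this scale Nop56 had 4316 in DKO and 4125 in WT, Ncl 3607 in DKO and 4242 in WT, Nop58 2220 in DKO and 2242 in WT and Dkc1 1169 in DKO and 1335 in WT. Rrp9 was lowest, with 28.8 in DKO and 42.9 in WT. The annotated principal transcript of Ncl is long (8202 bases), so its level per kb is a low estimate. Npm1 and Ncl together held 54.1% and 54.5% of all reads of the 36 genes in DKO, against 61.3%, 57.2% and 53.7% in WT. Npm1 is also known for processed copies in the genome, and reads shared with these would leave its level uncertain.

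Most members had lower means in DKO, by small amounts that passed no test, and the low values lay mainly in DKO replicate 1. The log2 fold change of DKO over WT was below 0 in 28 of 36 members, where it was below 0 in 49.95% of all 13242 genes tested, and the median was -0.15, against 0.00 over all genes. With each library scaled to its total outside mitochondrial genes, 24 of 36 members were below 0 with a median of -0.08, where the median of all genes was 0.07. In limma's moderated test none of the 36 passed an adjusted p of 0.05, and 0% of all genes did. At an unadjusted p under 0.05 limma also called 0 members lower and 0 higher, where 2.37% of all genes were called lower and 3.69% higher. EdgeR on the recovered reads called 0 members, again beside 0% of all genes, and DESeq2 called 0 members beside 0.219% of all genes. Ubtf was the 1 member with an unadjusted p under 0.05 in DESeq2, where its adjusted p was 0.710. At that threshold DESeq2 called 6.77% of all genes in either direction. Every DKO value lay below every WT value in 6 members, or 16.7% of them, beside 11.0% of all genes. In 0 members did every DKO value lie above every WT value, beside 12.5% of all genes.

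DKO replicate 1 was the lowest of the 5 libraries in 26 of 36 members, beside 21.8% of all genes. In the same 26 members (72.2%) it lay below every WT library, beside 26.4% of all genes. Other lists shared this trait. DKO replicate 1 was lowest in 66.7% of proliferation genes and in 57.1% of cytosolic ribosomal protein genes. The share was 45.9% for mitochondrial ribosomal protein genes and 44.2% for the 104 biogenesis genes outside the set. DKO replicate 2 lay below every WT library in 6 members (16.7%), beside 21.5% of all genes, and above every WT library in 6, beside 21.5% of all genes. The median member stood 0.36 below the WT mean on the log2 scale in DKO replicate 1, and 0.04 above it in DKO replicate 2. Between the DKO libraries themselves, 34 of 36 members were lower in replicate 1, with Nop10 and Ppan as the exceptions, while 48.4% of all genes were. The share was 91.7% for proliferation genes, 77.9% for cytosolic and 74.3% for mitochondrial ribosomal protein genes and 79.8% for other biogenesis genes. Without DKO replicate 1, which leaves 1 DKO library, 16 of 36 members were below 0 and the median was 0.04. Without DKO replicate 2, 33 were below 0 and the median was -0.36.

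**Figure D1:**
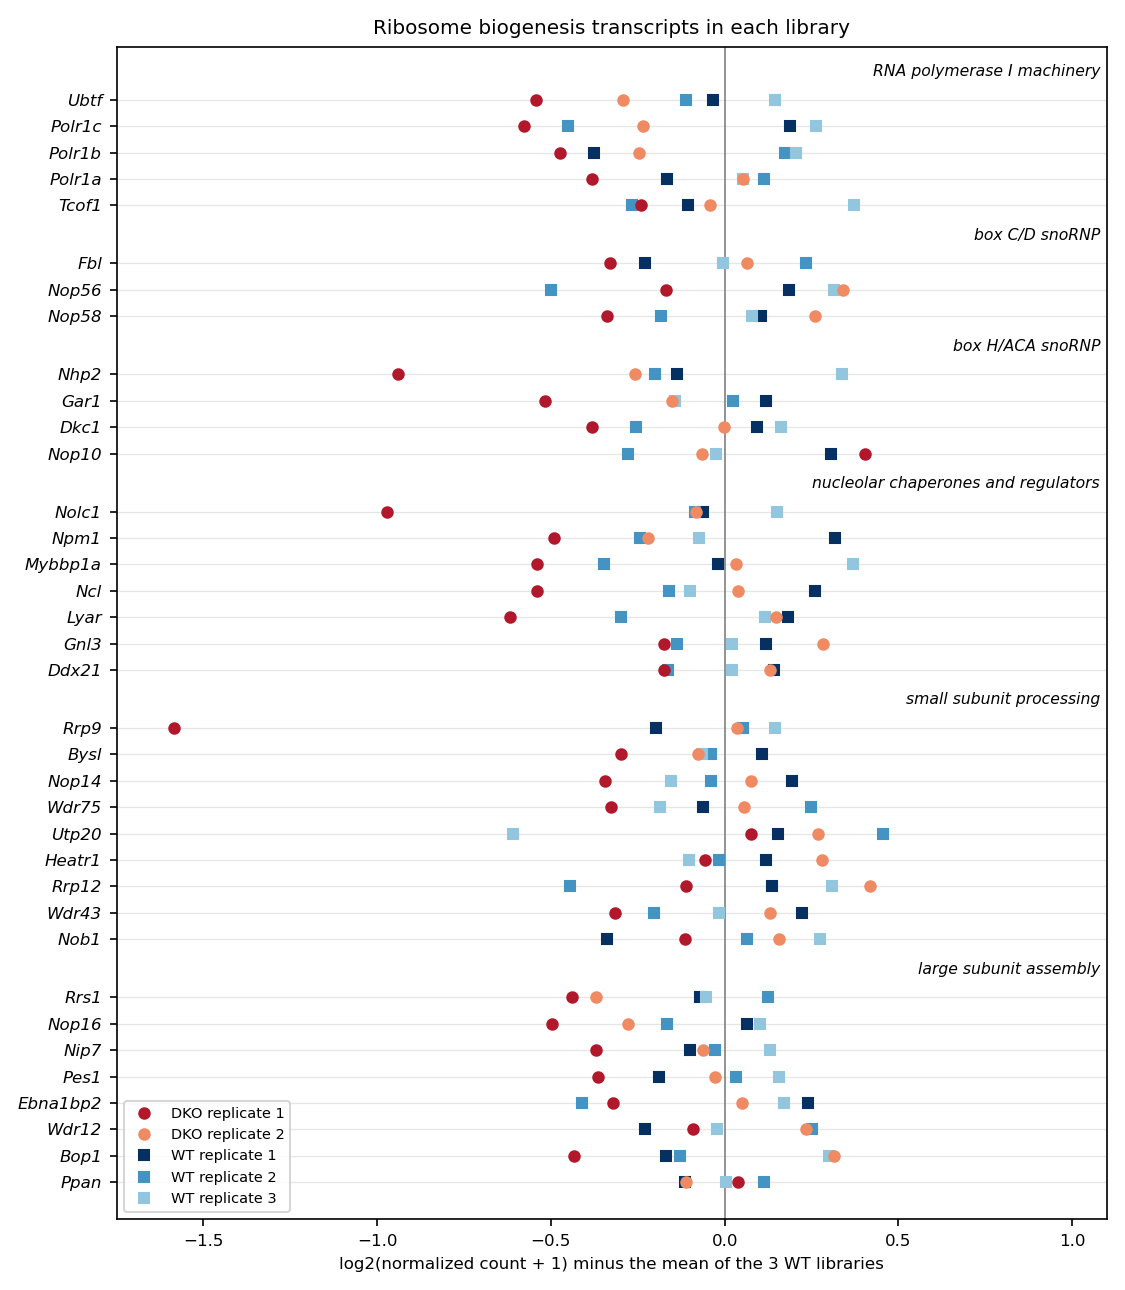
Level of each of the 36 members in each library, as log2(normalized count + 1) minus the mean of the 3 WT libraries, grouped by role and ordered by p within a role. DKO replicate 1 (dark red circles) is the lowest library in 26 members, and DKO replicate 2 (orange circles) lies below all WT libraries (blue squares) in 6 members and above them all in 6, beside 21.5% of all genes for each.

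**Figure D2:**
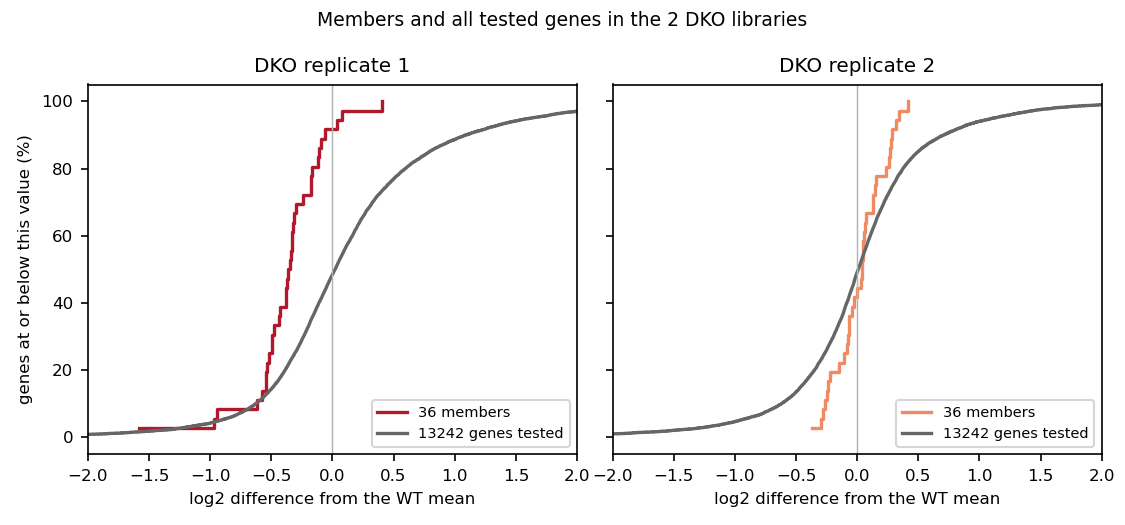
Share of genes (vertical axis, percent) at or below a given log2 difference from the mean of the 3 WT libraries (horizontal axis), for the 36 members (colored) and all 13242 genes tested (grey), in DKO replicate 1 (left) and DKO replicate 2 (right). Over most of its length the members' curve lies left of that of all genes in DKO replicate 1, with a median of -0.36, and crosses it near 0 in DKO replicate 2, with a median of 0.04.

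All 5 members of the RNA polymerase I machinery had fold changes below 0, with a median of -0.36, and all 5 were also below 0 under the scalings and count models tried. Without DKO replicate 1, 4 of 5 were below 0 and the median was -0.24, with Polr1a above 0, and without WT replicate 3 it was 4 of 5 as well. Ubtf encodes UBF, the factor that keeps ribosomal DNA open and recruits the polymerase. It had 1995 and 2375 normalized counts in DKO, against 2840, 2693 and 3219 in WT. Both DKO libraries lay below all WT libraries, and limma gave a fold change of -0.42 ± 0.20 on the log2 scale (SE, adjusted p = 0.832), the smallest p of the 36 genes. Polr1c, a subunit shared by RNA polymerases I and III, had 252 and 320 in DKO and 429, 275 and 452 in WT, so that WT replicate 2 lay between the DKO libraries (-0.41 ± 0.30, adjusted p = 0.877, limma). For the remaining 3 genes, the catalytic subunits Polr1a and Polr1b and the nucleolar phosphoprotein gene Tcof1, the log2 fold changes ran from -0.36 to -0.14 and the groups overlapped. Per kilobase, Ubtf had 702 normalized counts per kb in DKO and 938 in WT, and Tcof1 812 in DKO and 911 in WT, so that Tcof1 was the higher of the pair in DKO and Ubtf in WT.

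Among snoRNP proteins the fold changes had both signs. The median was -0.04 for box C/D and 0.26 without DKO replicate 1. With scaling to the total outside mitochondrial genes it was 0.03, where the median of all genes was 0.07. For box H/ACA it was -0.26, and -0.11 without DKO replicate 1. In the box C/D particle, which guides 2'-O-methylation of ribosomal RNA, Fbl, the methyltransferase, had 265 and 349 normalized counts in DKO and 285, 393 and 332 in WT (-0.13 ± 0.27, adjusted p = 0.950, limma). The scaffold gene Nop56 had 6684 and 9517 in DKO and 8550, 5322 and 9355 in WT (0.08 ± 0.29, adjusted p = 0.969, limma). The lowest library for Nop56 was WT replicate 2 and the highest DKO replicate 2. Nop58, its partner, stood at -0.04 ± 0.23.

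The box H/ACA particle guides pseudouridylation and also stabilizes telomerase RNA. Nhp2 had 151 and 244 normalized counts in DKO, against 265, 254 and 369 in WT. The groups did not overlap, though DKO replicate 2 and WT replicate 2 were close (log2 fold change -0.60 ± 0.32, adjusted p = 0.861, limma), and without DKO replicate 1 the fold change was -0.26. Gar1 had 251 and 324 in DKO and 391, 366 and 326 in WT, again without overlap, and DKO replicate 2 was within a few counts of WT replicate 3 (-0.33 ± 0.25, adjusted p = 0.877, limma). Dkc1, the pseudouridine synthase dyskerin, had 2847 and 3709 in DKO and 3959, 3113 and 4154 in WT, with overlap (-0.19 ± 0.22, adjusted p = 0.913, limma). Nop10, the smallest protein of the particle, had a fold change above 0 (0.17 ± 0.35). It had 148 and 107 in DKO and 138, 91.8 and 110 in WT, and its highest value was in DKO replicate 1.

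All 7 nucleolar chaperones and regulators were lowest in DKO replicate 1, beside 21.8% of all genes. In DKO replicate 2, 0 of 7 lay below the WT range, beside 21.5% of all genes. The level of the 7 averaged 0.50 below the WT mean on the log2 scale in DKO replicate 1 and 0.05 above it in DKO replicate 2. The fold change was below 0 in 6 of 7 (median -0.25), and in 2 of 7 without DKO replicate 1 (median 0.04). Nolc1, a chaperone of snoRNPs also called Nopp140, had 716 and 1327 normalized counts in DKO, against 1345, 1324 and 1559 in WT. The DKO libraries were at 50.8% and 94.2% of the WT mean and DKO replicate 2 overlapped WT replicate 2 (-0.53 ± 0.27, adjusted p = 0.861, limma). Without DKO replicate 1 the fold change of Nolc1 was -0.08. Npm1, a histone and ribosome chaperone that shuttles between nucleolus and cytoplasm, averaged 23485 ± 3096 in DKO and 30350 ± 6220 in WT (SD, n = 2 and 3), where WT replicate 1 alone had 37303 and the groups overlapped. For Npm1 limma gave -0.36 ± 0.26 (adjusted p = 0.877). Ncl, which encodes nucleolin, had 23736 and 35428 in DKO and 41307, 30852 and 32213 in WT, with overlap. The RNA helicase gene Ddx21, the nucleostemin gene Gnl3, Lyar and Mybbp1a had log2 fold changes between -0.25 and 0.05.

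Of the 9 factors of the small subunit, 5 were below 0 (median -0.09), and 1 of 9 without DKO replicate 1 (median 0.13). Rrp9, a protein of the U3 snoRNP, had 21.9 and 69.4 normalized counts in DKO, against 58.9, 70.2 and 74.96 in WT. DKO replicate 1 alone was low, and DKO replicate 2 lay within the WT range. It rested on 25 reads in DKO replicate 1, with an exact 95% Poisson interval of 14.2 to 32.3 normalized counts that covers counting error only. Rrp9 stood at -0.77 ± 0.55 on the log2 scale (adjusted p = 0.877, limma), the widest error of all members, and at 0.04 without DKO replicate 1. Bysl, needed to mature the 18S RNA, had 401 and 467 in DKO and 531, 480 and 471 in WT. The groups did not overlap, but the gap between DKO replicate 2 and WT replicate 3 was a few counts (-0.19 ± 0.22, adjusted p = 0.914, limma). Wdr43, a subunit of the complex that opens precursor processing, was highest per kilobase in this group and had 2063 and 2811 in DKO and 2995, 2232 and 2539 in WT (-0.09 ± 0.22, adjusted p = 0.957, limma). Utp20, Rrp12, Heatr1 and Nob1 had fold changes above 0, from 0.02 to 0.17, and Wdr75 and Nop14 stood at -0.14 each. Utp20 had the widest range over WT libraries, 2.09-fold, with 893 in WT replicate 3 and 1869 in WT replicate 2.

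In the large subunit group 7 of 8 were below 0 (median -0.17). In 2 of the 8 every DKO value lay below every WT value, beside 11.0% of all genes. With scaling to the total outside mitochondrial genes, which put the median of all genes at 0.07, 5 of 8 were below 0 (median -0.10). Without DKO replicate 1 it was also 5 of 8 (median -0.05). Rrs1, which brings 5S RNA into the particle in yeast, had 201 and 211 normalized counts in DKO and 259, 297 and 262 in WT. Here the DKO libraries were close to each other and both below all WT libraries (-0.40 ± 0.26, adjusted p = 0.877, limma). Nop16 had 238 and 278 in DKO, against 352, 300.3 and 361 in WT, again without overlap (-0.39 ± 0.25, adjusted p = 0.877, limma). Ebna1bp2 had 771 and 996 in DKO and 1136, 724 and 1084 in WT, and WT replicate 2 was the lowest library (-0.14 ± 0.26, adjusted p = 0.949, limma). Pes1, Bop1 and Wdr12, which form the PeBoW complex, did not share a direction, at -0.20 ± 0.22, -0.06 ± 0.29 and 0.07 ± 0.26. Nip7 and Ppan were at -0.22 and -0.04.

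**Figure D3:**
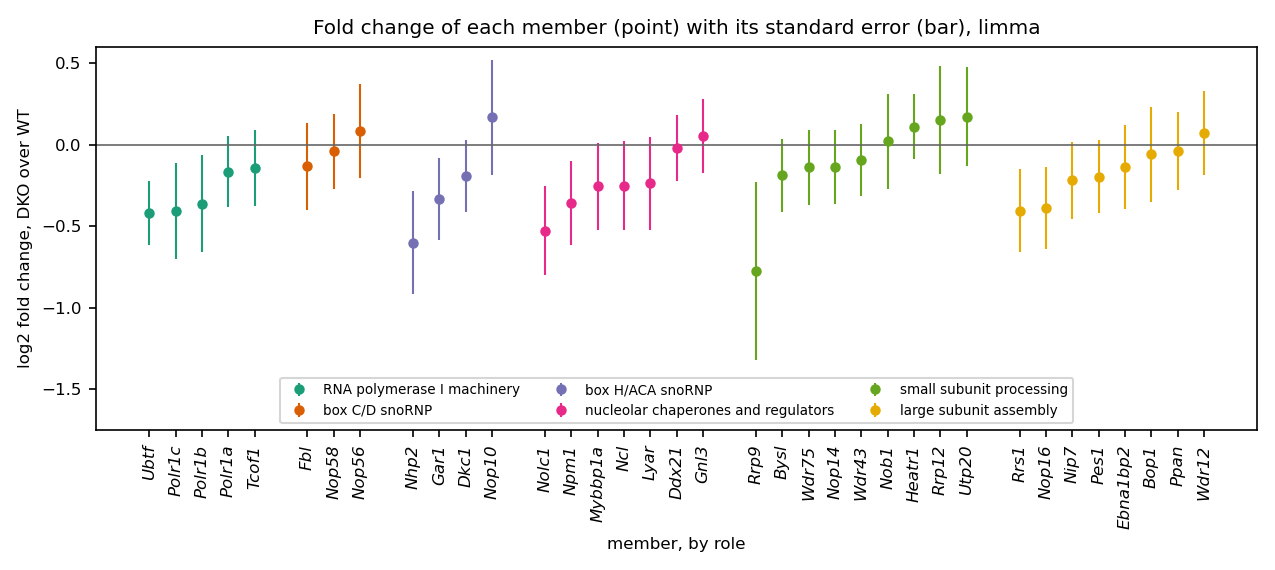
Log2 fold change of DKO over WT (point) with its limma standard error (bar) for each of the 36 members, colored and grouped by role. Values run from -0.77 for Rrp9 to 0.17 for Utp20, with 28 below 0, and none passed the adjusted threshold.

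Genes of the pathway outside the set had small fold changes as well. Of 104 further biogenesis genes, 72 were below 0 and the median was -0.11. Without DKO replicate 1, 47 of 104 were below 0 and the median was 0.03. Factors of the large subunit were below 0 in 37 of 48 (median -0.17), those of the small subunit in 24 of 40 (median -0.06) and the remaining RNA polymerase I genes in 11 of 16 (median -0.10). With scaling to the total outside mitochondrial genes these medians were -0.10 for the large subunit, 0.01 for the small subunit and -0.03 for RNA polymerase I. The median of all genes was 0.07 under that scaling. None of the 104 passed the adjusted threshold in limma, edgeR or DESeq2. At an unadjusted p under 0.05 limma called 3 of them lower and 0 higher, beside 2.37% and 3.69% of all genes. Eif6, which keeps the large subunit from joining too early, had 370 and 536 normalized counts in DKO and 696, 644 and 972 in WT (-0.76 ± 0.27, adjusted p = 0.823, limma). Pwp2 of the early processing complex had 234 and 263 in DKO and 442, 347 and 406 in WT (-0.67 ± 0.25, adjusted p = 0.823, limma). Mphosph10 had 1124 and 1209 in DKO and 1721, 1463 and 1564 in WT (-0.44 ± 0.19, adjusted p = 0.823, limma). These 3 genes were picked by p in the same fit, and in each both DKO libraries lay below all WT libraries. Of the 104 genes, 21 had every DKO value below every WT value, beside 11.0% of all genes. In 4 every DKO value lay above every WT value, beside 12.5% of all genes.

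Genes of the pathway also had values on the other side. Mdn1, an ATPase that strips factors from the large subunit, had 3657 and 4435 in DKO and 3387, 2887 and 1503 in WT (0.72 ± 0.33, adjusted p = 0.832, limma). Taf1a, a subunit of the promoter factor SL1, had 193 and 136 in DKO and 89.9, 88.7 and 115 in WT (0.73 ± 0.34, adjusted p = 0.832, limma). The remaining genes with the smallest p of their lists were Twistnb, an RNA polymerase I subunit (-0.42 ± 0.22), Polr2h, shared by all 3 RNA polymerases (-0.46 ± 0.36), Utp3 (-0.41 ± 0.23) and the nuclease gene Las1l (-0.48 ± 0.22). Cytosolic ribosomal protein genes were below 0 in 61 of 77 (median -0.20). Scaling to the total outside mitochondrial genes gave 53 of 77 (median -0.13), and leaving out DKO replicate 1 gave 50 of 77 (median -0.07). Mitochondrial ribosomal protein genes were below 0 in 47 of 74 (median -0.05), with a median of 0.02 under that scaling and of 0.01 without DKO replicate 1. Under that scaling the median of all genes was 0.07.

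Myc, the transcription factor, had 1264 and 1658 normalized counts in DKO and 1709, 1413 and 1542 in WT (-0.10 ± 0.21, adjusted p = 0.953, limma), with DKO replicate 1 lowest. Its partner Max had 4549 and 5056 in DKO and 7254, 4501 and 5640 in WT (-0.25 ± 0.24). Mycn was listed at 0 in both DKO libraries and had 2 reads in WT replicate 1 and 0 in the other WT libraries.

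The low level in DKO replicate 1 was set beside the transcripts of other cells. Relative to the WT mean, the mean log2 level of the 36 members was -0.38 in DKO replicate 1 and 0.02 in DKO replicate 2, and 0.02, -0.09 and 0.07 in the WT libraries. WT replicate 2 carried more T cell transcripts than DKO replicate 1 and also more naive B cell transcripts, whose mean lay 0.75 above the WT mean in DKO replicate 1 and 1.22 above it in WT replicate 2. In WT replicate 2 the 36 members were 0.09 below the WT mean, which includes that library. All 12 T cell markers were detected in DKO replicate 1, and Cd3g was at 0 in DKO replicate 2. In WT, Bcl11b and Cd8b1 were at 0 in replicate 3. The summed T cell marker list came to 2188 and 1374 normalized counts in DKO and to 1454, 2809 and 1540 in WT. Of this, Cd2 alone gave 1519 and 1229 in DKO and 1342, 1391 and 1468 in WT. Cd2 varied little over the libraries, so the sum is a weak measure of T cells. Cd3e, a defining marker, had 163 and 26.4 in DKO and 10.7, 363 and 7.69 in WT. Myeloid markers stood at 1.39 and 0.49 in DKO and at 1.796, -0.62 and -1.18 in WT, and the 2 tested erythroid markers at 2.52 and 0.93 in DKO and at 0.49, -0.76 and 0.27 in WT. Proliferation genes were low in both libraries that stood apart, at -0.38 in DKO replicate 1 and -0.36 in WT replicate 2, against 0.17 in DKO replicate 2, 0.16 in WT replicate 1 and 0.20 in WT replicate 3. The mean of the 7 germinal center markers stood at -0.42 and -0.20 in DKO and at 0.21, -0.30 and 0.10 in WT. Their median stood at -0.31 and 0.03 in DKO and at 0.10, -0.24 and 0.11 in WT. Rgs13 was the marker with the lowest fold change (-1.63). The part of these transcripts in the members' level was not tested. Leaving out both libraries, a setting added after the values were seen, left 20 of 36 members below 0, with a median of -0.03. In sorted bulk cells, fewer cells of a type and less RNA per cell cannot be told apart.

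**Figure D4:**
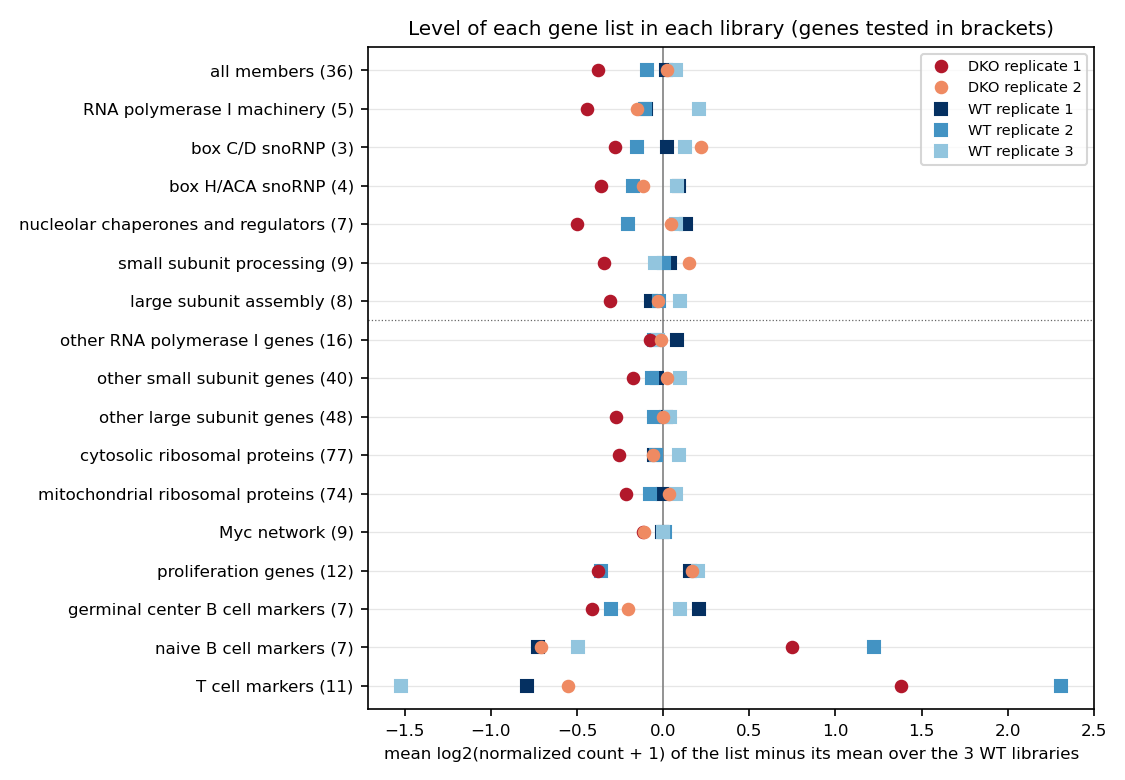
Mean log2(normalized count + 1) of each gene list in each library, minus its mean over the 3 WT libraries, with the number of tested genes in brackets. The 36 members and the 6 role groups stand above the dotted line. In all 6 role groups DKO replicate 1 is lowest, at -0.38 over all members. WT replicate 2 has T cell markers at 2.31 and members at -0.09, relative to a mean that includes it. The part of other cells' transcripts in the members' level was not tested.

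Counted as a share of all reads outside the mitochondrial genome, which weights the abundant genes, the members took 0.537% and 0.771% in DKO and 0.777%, 0.615% and 0.760% in WT. On this scale WT replicate 2 was also low. Without Npm1 and Ncl the shares were 0.246% and 0.351% in DKO and 0.301%, 0.263% and 0.352% in WT, so DKO replicate 1 stayed lowest and WT replicate 2 was near it.

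Transcript length and GC content were looked at because amplified libraries can differ in both. Over the 36 members, Spearman's rho of the fold change was 0.21 with length and -0.28 with GC content. Over 12501 tested genes with an annotation, it was 0.04 and -0.13. These are correlations across genes of the same libraries, which are not independent. After correction of each library for both properties, 28 of 36 members were below 0 and the median was -0.15.

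**Figure D5:**
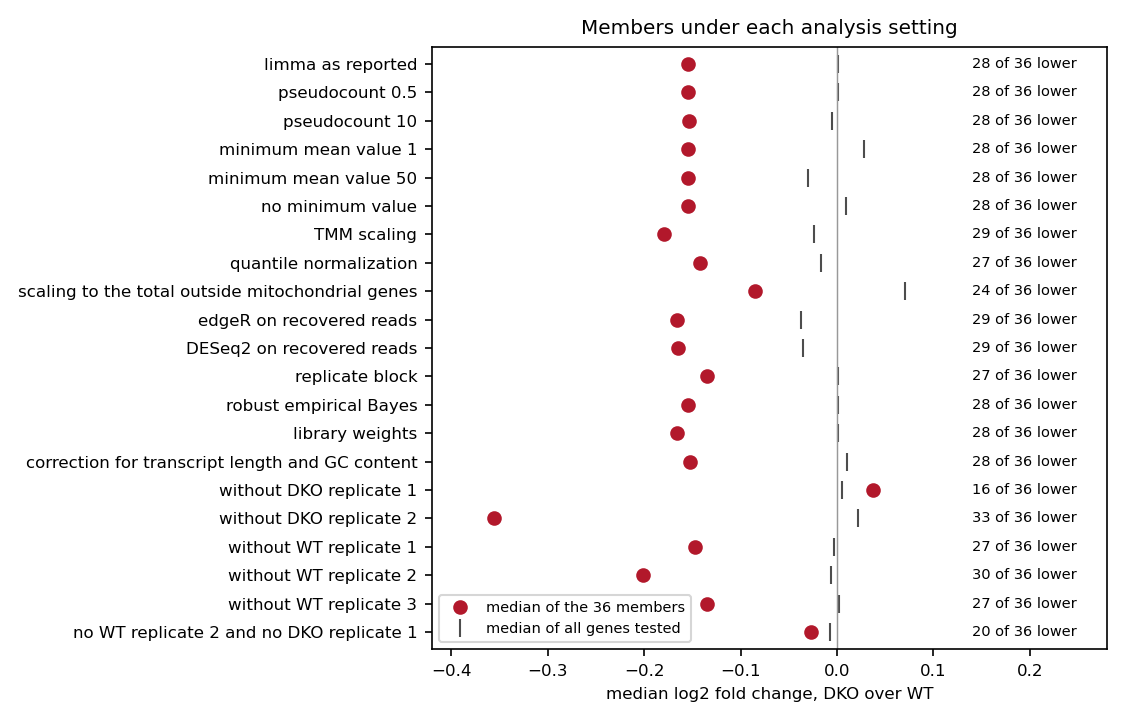
Median log2 fold change of DKO over WT for the 36 members (red) and for all genes tested (grey bars) under each analysis setting, with the number of members below 0. The members' median lies between -0.20 and -0.08 except without DKO replicate 1 (0.04), without DKO replicate 2 (-0.36) and without both libraries that stood apart (-0.03).

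Promoter sequence from RefSeq (assembly GRCm38.p6, whereas the authors used mm9) was matched for 30 of the 36 genes, as windows from 250 bases before to 50 bases after the start. The E-box CACGTG, the letters that Myc and Max bind, is the same on both strands. It was present in 4 of 30 members (13.3%), beside 11.9% of 8819 tested genes with a window, 24.7% of 85 other biogenesis genes and 8.09% of all genes with a window. All 4 lay after the start, where 13.8% of the E-boxes in windows of tested genes lie. They are shown with the E-box in capitals, 5′ to 3′ on the strand of the gene, because the program is a known target of Myc. Pes1 (chr11:3963965-3963994, plus strand) has it from base 3 after the start, Wdr43 (chr17:71616220-71616249, plus strand) from base 18, Utp20 (chr10:88826765-88826789, minus strand) from base 38 and Mybbp1a (chr11:72441355-72441376, plus strand) from base 41. The start of the Mybbp1a window was not found in its annotated transcripts, so its position is less sure.
Pes1: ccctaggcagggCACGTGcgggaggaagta
Wdr43: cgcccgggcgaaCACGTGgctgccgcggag
Utp20: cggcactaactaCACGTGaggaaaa
Mybbp1a: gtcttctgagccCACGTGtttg

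Their fold changes were -0.20, -0.09, 0.17 and -0.25 in this order, so members with the E-box had values on both sides of 0. The GC box GGGCGG, searched on both strands, was in 20 of 30 members (66.7%) and in 67.9% of tested genes, and CCAAT, likewise on both strands, in 10 of 30 (33.3%) and 43.3%. The 100 bases before the start are shown for the 4 members whose groups did not overlap and that have a single window, with GC box, CCAAT and E-box letters in capitals. These are Nhp2 (chr11:51619673-51619772, plus strand), Gar1 (chr3:129831397-129831496, minus strand), Nop16 (chr13:54590075-54590174, minus strand) and Bysl (chr17:47611493-47611592, minus strand). Nhp2 alone of the 4 holds any of these letters in this stretch, as CCAAT in both orientations.
Nhp2: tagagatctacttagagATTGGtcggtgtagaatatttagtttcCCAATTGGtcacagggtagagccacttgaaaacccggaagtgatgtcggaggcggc
Gar1: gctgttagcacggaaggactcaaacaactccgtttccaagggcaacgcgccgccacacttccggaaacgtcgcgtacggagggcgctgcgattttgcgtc
Nop16: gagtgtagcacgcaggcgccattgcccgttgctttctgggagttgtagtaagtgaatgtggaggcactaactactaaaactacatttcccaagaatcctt
Bysl: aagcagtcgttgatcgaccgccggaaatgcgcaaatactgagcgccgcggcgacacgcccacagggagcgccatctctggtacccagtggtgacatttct

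Several members host snoRNAs in their introns, and the table lists these under names of their own. Within the members, 16 such snoRNA genes had at least 1 read. Their summed value was 105 and 154 normalized counts in DKO, against 38.5, 81.5 and 56.7 in WT. Every DKO value lay above every WT value in 8 of the 16 and below in 0, beside 12.5% and 11.0% of all genes tested. In the rest, Snord69 in Gnl3 and Snora75 in Ncl among them, the groups overlapped. Of the 16, 13 had a mean under 10. Among rows other than snoRNAs with a mean above 0 and under 10, 10.2% lay above and 3.30% below. Host fold changes were 0.05 for Gnl3, -0.09 for Wdr43 and -0.25 for Ncl. In the introns of Gnl3, Snord19 had 10.5 and 17.3 in DKO and 4.28, 1.03 and 2.88 in WT, and Snord53 in Wdr43 had 14.9 and 24.8 in DKO and 5.35, 12.4 and 4.805 in WT. In the introns of Ncl, Snord82 had 19.3 and 44.6 in DKO and 4.28, 18.6 and 13.5 in WT. They rest on 120 and 187 reads in all in DKO and on 36, 79 and 59 in WT, and were looked at after other values had been seen. These snoRNA genes lie on the strand of their hosts, so reads from the snoRNA and from the intron of its host cannot be told apart. Of 389 snoRNA rows outside the members with at least 1 read, 29.3% also had every DKO value above every WT value.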

How the data were processed

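RNA of sorted cells was amplified with the NuGEN Ovation RNA-Seq System V2 and sequenced as paired reads, per the labels' protocols and the series' design text. TopHat2 2.0.4, Cufflinks 2.0.2, CASAVA 1.8.2 and the build mm9 are listed in the submitters' processing notes. How reads were counted and scaled, on which annotation and strand, is not given in the sources used here. Values deposited by the authors are a signal per gene and library, a read count divided by 1 factor per library: at least 99.99% of values above 0 in each library were whole multiples of the smallest, within 0.01. Values are called normalized counts, and dividing by the step gave whole reads. Gene names in capitals were matched to GENCODE M21 for spelling, transcript length (median of principal transcripts) and position of snoRNA genes.

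All 13242 genes with a mean of at least 10 were fitted with limma 3.58.1 (R 4.3.3) on log2(value + 1), with a mean-variance trend, two-sided tests, Benjamini-Hochberg adjustment and a threshold of 0.05, in all 5 libraries. The added 1 draws the fold changes of low genes toward 0. Even so, Rrp9 and Relb had larger changes on this scale (-0.77 and -2.43) than in edgeR (-0.58 and -2.08). EdgeR 4.0.16 and DESeq2 1.42.0 on recovered reads, other pseudocounts, minimum values, scalings and weights, a replicate block, a length and GC correction with splines of 5 degrees of freedom and leaving out each library were alternatives. On simulated data for this comparison with 13242 genes, the limma test called 3.43% of genes changed 2-fold, 38.4% changed 4-fold, 61.1% changed 8-fold and 29 of 130420 unchanged genes. The simulated spread was that seen within the groups, which already holds counting noise, and Poisson noise was added on top. The shares called may therefore be too low, most of all for low genes. The members and lists were chosen with earlier results of these data known. Members named with all values were, in each of 6 roles, the 2 with the smallest p and the highest per kilobase. Of each list of other biogenesis genes the 3 with the smallest p were named, to which Myc, Mycn, Max, Relb and Nfkb2 were added. Other members named with values, and the snoRNA rows, were chosen after their values were seen.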

Additional observations from a re-analysis of the deposited data

How the results depend on the processing

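Over 20 alternatives, of which 1 was added after seeing the data, the count of members called was 0 each time. With all 5 libraries, 24 to 29 of 36 members were below 0 and the median ran from -0.18 to -0.08. The value of -0.08 came with scaling to the total outside mitochondrial genes, which also moved the median of all genes, from 0.00 to 0.07. When 1 library was left out, the count below 0 ran from 16 to 33 and the median from -0.36 to 0.037, in both cases between the fits without DKO replicate 1 and without DKO replicate 2, each of which holds 1 DKO library whose spread is assumed to be that of WT. Of 300 values of the 15 named members under an alternative, 290 kept their direction and their side of the threshold and 10 changed sign, 4 of them without DKO replicate 1. With 1 library left out, Fbl ran from -0.33 to 0.065, Nop56 from -0.17 to 0.34, Ebna1bp2 from -0.34 to 0.049, Rrp9 from -1.58 to 0.036, Wdr43 from -0.32 to 0.13 and Myc from -0.29 to 0.10. The other named members stayed below 0, with Nhp2 between -0.94 and -0.26, Nolc1 between -0.97 and -0.08, Polr1c between -0.63 and -0.24, Ubtf between -0.54 and -0.29, Gar1 between -0.52 and -0.15, Nop16 between -0.50 and -0.28, Npm1 between -0.49 and -0.20, Rrs1 between -0.44 and -0.34, Dkc1 between -0.38 and -0.0015 and Bysl between -0.30 and -0.08. List values without a library and list medians under other scalings were computed after seeing the data. Without both WT replicate 2 and DKO replicate 1, the signs turned for Fbl (0.18), Rrp9 (0.062), Wdr43 (0.027) and Myc (0.030), and Myc also turned with the length and GC correction (0.033). The causes were not tested, beyond the removal of a library itself. Same-numbered libraries share the number in their labels. Over all genes tested, their deviations from the group means correlated at 0.005 for replicate 1 and at -0.28 for replicate 2. DKO replicate 1 correlated with WT replicate 2 at 0.28. With 2 DKO libraries, the deviations from the DKO mean mirror each other, so these values cannot tell whether libraries were paired. With the replicate block, which leaves 1 residual degree of freedom and takes WT replicate 3 out of the comparison, 27 members were below 0, the median was -0.13, 36 genes of the whole table passed in place of 0, Nfkb2 among them (adjusted p = 0.0101), and 0 members did. The fewest reads of any member in a library were 25, for Rrp9 in DKO replicate 1.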

Other observations

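Small nucleolar RNA genes were also read as a group. Outside the members, 389 snoRNA rows had at least 1 read, and their summed value was 4717 and 4807 normalized counts in DKO, against 3222, 2991 and 2953 in WT. Per M reads outside the mitochondrial genome this was 304 and 331 reads in DKO and 195, 188 and 199 in WT. The snoRNA row Gm24357 held 25.6% of the sum. Every DKO value lay above every WT value in 114 rows and below in 3. Among snoRNA rows with a mean under 10 the share above was 25.8% and the share below 0.615%, beside 10.2% and 3.30% of the 9789 other rows with a mean above 0 and under 10. The rows were looked at after other values had been seen, no test was run, and snoRNA and host intron reads cannot be told apart here.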
